A study of Mus musculus with 15 samples.

Results

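In KD6, 1 of the hairpin lines made against Smarcd1 in 6DT1 mouse mammary cancer cells, 40 genes stood apart from every other line, 10 with higher and 30 with lower mRNA. They were chosen by these levels: CPM (read counts scaled to the sequencing depth of a library) of the listed transcripts were summed per gene, and a gene was kept when its highest line mean was at least 5 CPM, when the 3 KD6 libraries all lay above or all below the 12 other libraries, and when the KD6 mean was at least 1.3-fold from each of the 4 other line means. Of 10689 genes with at least 5 CPM, the 10 higher genes were 0.0936% and the 30 lower genes 0.281%. At any fold, the KD6 libraries lay above the 12 others in 90 genes (0.842%) and below them in 114 (1.07%). Since these values chose the genes, the KD6 levels below are a description without a test, and in bulk libraries fewer cells with a transcript and less of it per cell cannot be told apart. The same limits picked 231 genes for KD4, 147 for shScr, 35 for EV and 2 for OE.

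The 5 lines of 6DT1, an established line of mouse mammary carcinoma cells, were sequenced in 3 libraries each. KD6 and KD4 carry a lentiviral short hairpin RNA against Smarcd1, and shScr carries a scrambled hairpin; all 3 were kept in puromycin. OE carries a Smarcd1 coding sequence and EV the empty vector, both kept in blasticidin. All were untreated monolayers on plastic, collected 24 h after seeding at 70% confluence, from a different passage for each library; each line is 1 transduced population, so a hairpin and the line that carries it cannot be told apart, and p values measure the spread between passages of 1 line.

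Smarcd1 (ENSMUSG00000023018), which encodes a BAF complex subunit, had 12.2, 14.3 and 13.1 CPM in the KD6 libraries and 8.32, 7.22 and 8.76 CPM in the KD4 libraries, against 14.1, 17.0 and 14.7 CPM in the shScr libraries. It had 38.3, 37.4 and 36.4 CPM in the OE libraries, against 32.4, 27.0 and 28.8 CPM in the EV libraries. KD6 thus overlapped shScr and kept 86.4% of its level (log2 change -0.20, SE 0.10, adjusted p = 0.315 in limma), whereas KD4 lay below all shScr libraries at 53.02% (log2 change -0.84, SE 0.10, adjusted p = 8.1e-05). The KD6 difference did not pass under any setting tried, so the label KD6 names a hairpin line in which lower Smarcd1 mRNA than in shScr was not shown.

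The listed CPM summed to between 854736 and 902115 per library. Mitochondrially encoded transcripts took 4.66% to 5.90% of that sum in the hairpin libraries (KD6, KD4 and shScr), against 5.93% to 6.93% in the OE and EV libraries, so that the hairpin libraries all lay below the vector libraries. Within the hairpin lines KD6 (4.69% to 5.70%) overlapped KD4 and shScr. The luminal keratins Krt8 and Krt18 averaged 422 and 368 CPM in KD6 and between 315 and 429 CPM in the other lines. Krt19 averaged 11.9 CPM in KD6 and 7.41 to 18.3 CPM in the others. These were the 3 of 6 listed luminal markers with values, and Epcam, Cdh1 and Krt7 had none. Of markers of other cell types, 1 each had values for myoepithelial cells (Acta2, 0.698 to 1.35 CPM over the line means), fibroblasts (Pdgfra, 2.505 to 6.31 CPM), immune cells (Cd68, 29.6 to 62.0 CPM) and endothelium (Kdr, 0.693 to 1.34 CPM). Of these, Pdgfra was lowest in KD6, next to 2.54 CPM in OE, and none of the others was highest or lowest there.

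A short hairpin RNA is cut by Dicer into a short duplex, and its guide strand is loaded into Argonaute. A transcript that pairs with the whole guide is cleaved, and a 3′ UTR that pairs only with the seed, the bases near the 5′ end of the guide, can be repressed as by a microRNA. Because a seed is short, hairpins against 1 gene can lower transcripts of other genes, and different hairpins lower different ones. The study marks a pair of Smarcd1 hairpins as used, with identifiers that end in 6 and 4. The digits match the line names, which is the sole ground here for setting the first beside KD6 and the second beside KD4. Both 21-base targets were coding bases of Smarcd1 (NCBIM37, plus strand), in exon 9 of 13 at chr15:99538330-99538350 and in exon 11 of 13 at chr15:99541565-99541585. They are shown because the matches below are read against them, with capitals on the 9 bases that face bases 2 to 10 of the guide.
Smarcd1, hairpin ending in 6: gcggatgaagtTCTCAGAGAt
Smarcd1, hairpin ending in 4: gcgagagttcaTGTTGAGCTt

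The 9 bases TCTCAGAGA of the first target occurred in the longest annotated 3′ UTR of 8 of the 30 lower genes (26.7%) and of 0 of the 9 higher genes with an annotated 3′ UTR, against 166 of 9418 genes with at least 5 CPM and a 3′ UTR (1.76%). The search used the sense strand of the transcript, and its length was chosen after the values were seen. The 8 genes are Ccm2, Thap7, Nup35, Gm4353, Fosl2, Ifi30, Csnk1g1 and 6330503K22Rik. Their 21-base stretches are printed with the same 9 bases in capitals.
Ccm2: cctcttctactTCTCAGAGAc
Thap7: tggcttcttttTCTCAGAGAc
Ifi30: gactccagactTCTCAGAGAc
Csnk1g1, second match: gtgggctttctTCTCAGAGAc
Csnk1g1, first match: aaggcacctcgTCTCAGAGAg
Nup35 and Gm4353: aggcggatgaaTCTCAGAGAg
Fosl2: ttcctccccggTCTCAGAGAt
6330503K22Rik, first match: agcaatccggaTCTCAGAGAa
6330503K22Rik, second match: tcacagttttcTCTCAGAGAa

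Each stretch lay in the last exon of its transcript, and the positions are on NCBIM37 from a match of the GENCODE transcripts. They were chr11:6496691-6496711 (plus strand) for Ccm2, chr16:17528236-17528256 (minus) for Thap7, chr8:73286742-73286762 (minus) for Ifi30 and chr5:32456272-32456292 (plus) for Fosl2. Csnk1g1 held chr9:65888594-65888614 and chr9:65892120-65892140 (plus), and 6330503K22Rik held chr7:125879636-125879656 and chr7:125880347-125880367 (plus). Nup35 held chr2:80498865-80498885 (plus) and Gm4353 chr7:123226551-123226571 (minus). Ccm2, Thap7, Ifi30 and the second match of Csnk1g1 extended to 10 bases, with a further T before the capitals. In Nup35 and Gm4353 the first 9 bases of the Smarcd1 target (gcggatgaa) also stood directly before the capitals, where the target has 2 further bases in between, so that 10 of 21 positions were identical in register. Nup35 and Gm4353 transcripts were 99.6% identical over 1543 aligned bases, so they are 1 sequence rather than separate observations, and their reads may have been split between them.

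The share of genes with a match depended on its length. Of the 30 lower genes, 20 held 6 bases (66.7%, against 48.8% of the 9418 genes), 12 held 7 bases (40.0%, against 17.95%), 11 held 8 bases (36.7%, against 6.76%), 4 held 10 bases (13.3%, against 0.605%) and 0 held 11. Cep97, Fam46a and Lsm1 were the genes with 8 bases but not 9, and Scube3 had 7. The median length of the 3′ UTR was 1291 bases in the lower genes and 1247 bases in the 9418 genes. For the hairpin ending in 4, 9 lower genes held 7 bases (30.0%, against 12.04%), while 1 held 8 bases (3.33%, against 2.495%) or more. That gene was Csnk1g1, with 11 bases; it had 86.7, 76.8 and 70.0 CPM in the KD4 libraries, against 80.0, 78.2 and 79.2 CPM in the shScr libraries, which lay within the range of KD4. The 9 bases of the first target stood in 1 of 119 genes picked as lower in KD4 by the same limits (0.840%), in 6 of 103 picked as higher in KD4 (5.83%) and in 1 of 109 picked as lower in shScr (0.917%).

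Counted over the genes with the match, 13 of the 166 had all KD6 libraries below the 12 others (7.83%) and 0 had them above, against 96 (1.04%) and 82 (0.886%) of the 9252 genes without the match. This uses the same KD6 levels as the rule, and 8 of the 13 are the members above, so it is a description. Apart from the members, 5 of 158 genes with the match had KD6 below all others (3.17%), among them Zfp180, Rufy2 and Trove2, whose nearest other line was 1.22-fold to 1.16-fold above KD6. The median difference of log2(CPM + 1) between KD6 and the other libraries was -0.03 over the 166 genes and -0.0047 over those without a match. A match is a description of the letters of an annotated 3′ UTR, and its part in the KD6 levels was not tested.

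**Figure D1:**
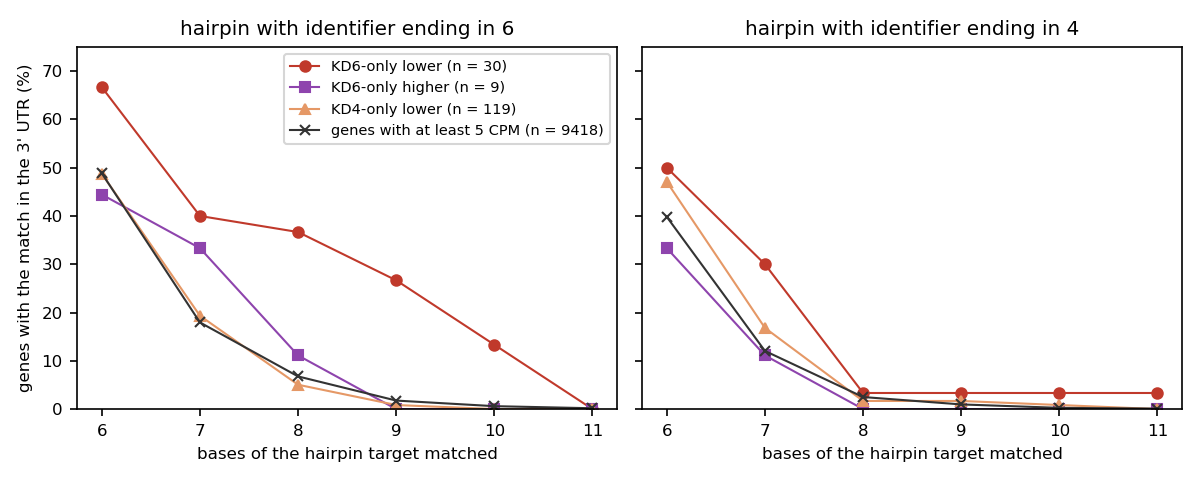
Share of genes (%) whose longest annotated 3′ UTR holds the stretch of each Smarcd1 hairpin target that faces the guide from base 2, by length of the stretch in bases; left, the hairpin with identifier ending in 6, right, that ending in 4, for lower and higher KD6-only genes, KD4-only lower genes and all genes with at least 5 CPM. At 9 bases of the first hairpin the lower KD6-only genes stand at 26.7% and all genes at 1.76%, while for the other hairpin they stand at 3.33% and 0.966%.

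Among the genes with the 9 bases, Ccm2 had the widest gap. Ccm2, a scaffold of the cerebral cavernous malformation complex, had 14.9, 12.3 and 14.2 CPM in the KD6 libraries, against 24.3 to 36.4 CPM (median 30.3) in the 12 others. The nearest line, shScr, was 1.89-fold above KD6. Nup35, a subunit of the nuclear pore, had 6.20, 5.47 and 6.34 CPM in KD6, against 9.09 to 11.53 CPM (median 10.0) in the others, and its near copy Gm4353 had 6.98, 6.06 and 6.86 CPM in KD6, against 10.4 to 15.4 CPM (median 12.1). The 4 other line means of Nup35 lay within 1.12-fold of each other.

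Ifi30, a lysosomal thiol reductase, had 23.0, 20.5 and 23.3 CPM in KD6, against 32.4 to 41.6 CPM (median 38.7) in the others. Csnk1g1, a casein kinase 1 isoform, had 48.2, 57.4 and 59.2 CPM in KD6, against 70.0 to 88.3 CPM (median 80.7). The library closest to KD6 was a KD4 library in both, replicate 1 for Ifi30 and replicate 3 for Csnk1g1. Fosl2, the AP-1 transcription factor Fra-2, had 27.3, 34.2 and 35.7 CPM in KD6, against 41.6 to 52.5 CPM (median 45.1), and 6330503K22Rik had 13.4, 15.1 and 16.3 CPM, against 19.2 to 24.2 CPM (median 21.6). Thap7, a THAP zinc finger protein that binds chromatin, had 11.5, 8.93 and 8.60 CPM, against 11.8 to 18.1 CPM (median 13.5). Here KD6 replicate 1 came next to the lowest other library, KD4 replicate 2, and in the deposited gene table of the hairpin lines Thap7 in KD6 overlapped KD4 and shScr.

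**Figure D2:**
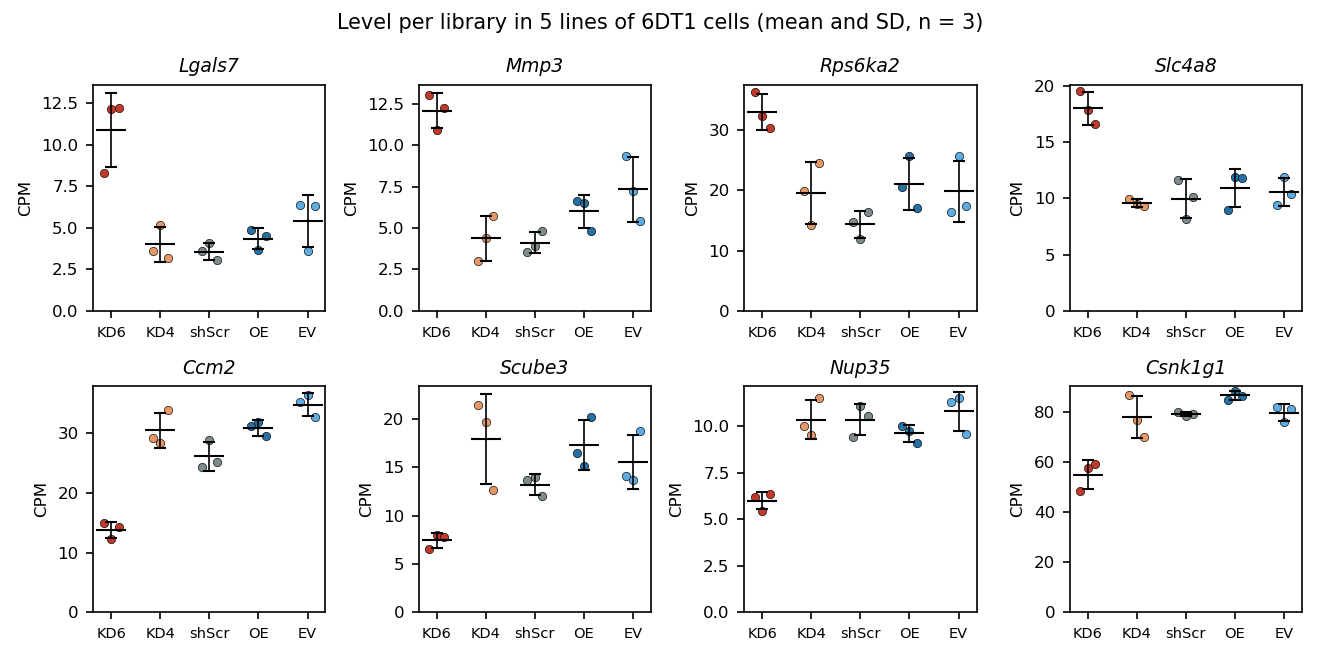
Level (CPM, linear axis from 0) of 4 higher and 4 lower KD6-only genes in each library of KD6, KD4, shScr, OE and EV, with points for libraries, the horizontal mark for the mean of 3 libraries and the bar for the SD. Lgals7 averaged 10.9 CPM in KD6 against 5.41 CPM in EV, the nearest line, and Ccm2 averaged 13.8 CPM in KD6 against 26.1 CPM in shScr, the nearest line.

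Of the 10 higher genes, Lgals7, Mmp3, Fbln1, Nov and Pappa2 encode proteins found outside the cell. Lgals7, the galactose-binding lectin galectin-7, had 8.33, 12.1 and 12.2 CPM in KD6, against 3.04 to 6.36 CPM (median 3.87) in the others, a KD6 mean 2.01-fold that of EV, the nearest line. Mmp3, the matrix protease stromelysin-1, had 13.1, 10.9 and 12.3 CPM in KD6, against 3.04 to 9.36 CPM (median 5.13), 1.65-fold the EV mean. It was the only member among the 28 measured genes of an extracellular matrix and adhesion list, of which 1 had KD6 above and 1 below all others. Over the genes with at least 5 CPM, 0.842% had KD6 above and 1.07% below all others. Fbln1, the matrix glycoprotein fibulin-1, had 5.36, 5.24 and 6.04 CPM in KD6, against 1.55 to 4.08 CPM (median 2.47), and Nov, the matricellular protein CCN3, had 7.06, 4.68 and 6.35 CPM, against 1.06 to 4.19 CPM (median 3.10). Both were 1.67-fold to 1.72-fold above KD4, their nearest line. Pappa2, a secreted protease of insulin-like growth factor binding proteins, had 13.7, 11.7 and 12.7 CPM in KD6, against 5.73 to 11.49 CPM (median 8.15). Its KD6 replicate 2 and EV replicate 2 were nearly level, at 11.7 and 11.49 CPM.

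Slc4a8, Rps6ka2, Bdkrb2 and Epha4 encode membrane or signalling proteins. Slc4a8, a sodium-driven chloride and bicarbonate exchanger, had 19.6, 17.8 and 16.6 CPM in KD6, against 8.20 to 11.9 CPM (median 10.0), and the 4 other lines lay within 1.14-fold of each other. Rps6ka2, the ribosomal S6 kinase RSK3 that acts downstream of ERK, had 36.4, 32.4 and 30.4 CPM in KD6, against 11.9 to 25.7 CPM (median 17.2). Bdkrb2, the bradykinin B2 receptor, had 8.13, 8.05 and 8.64 CPM, against 3.19 to 6.76 CPM (median 4.34). Its KD6 libraries were close together and 1.51-fold above EV, the nearest line. Epha4, an Eph receptor tyrosine kinase, had 12.9, 10.9 and 13.2 CPM in KD6, against 5.57 to 10.5 CPM (median 7.46), and at 1.31-fold the KD4 mean it was the higher gene closest to the limit. The tenth, ENSMUSG00000117278, had no symbol and stood at 6.72, 4.69 and 4.16 CPM, against 1.29 to 3.70 CPM (median 2.21). Abcc3 and Reck missed the limit by little, with KD6 means 1.296-fold and 1.297-fold those of the nearest line.

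**Figure D3:**
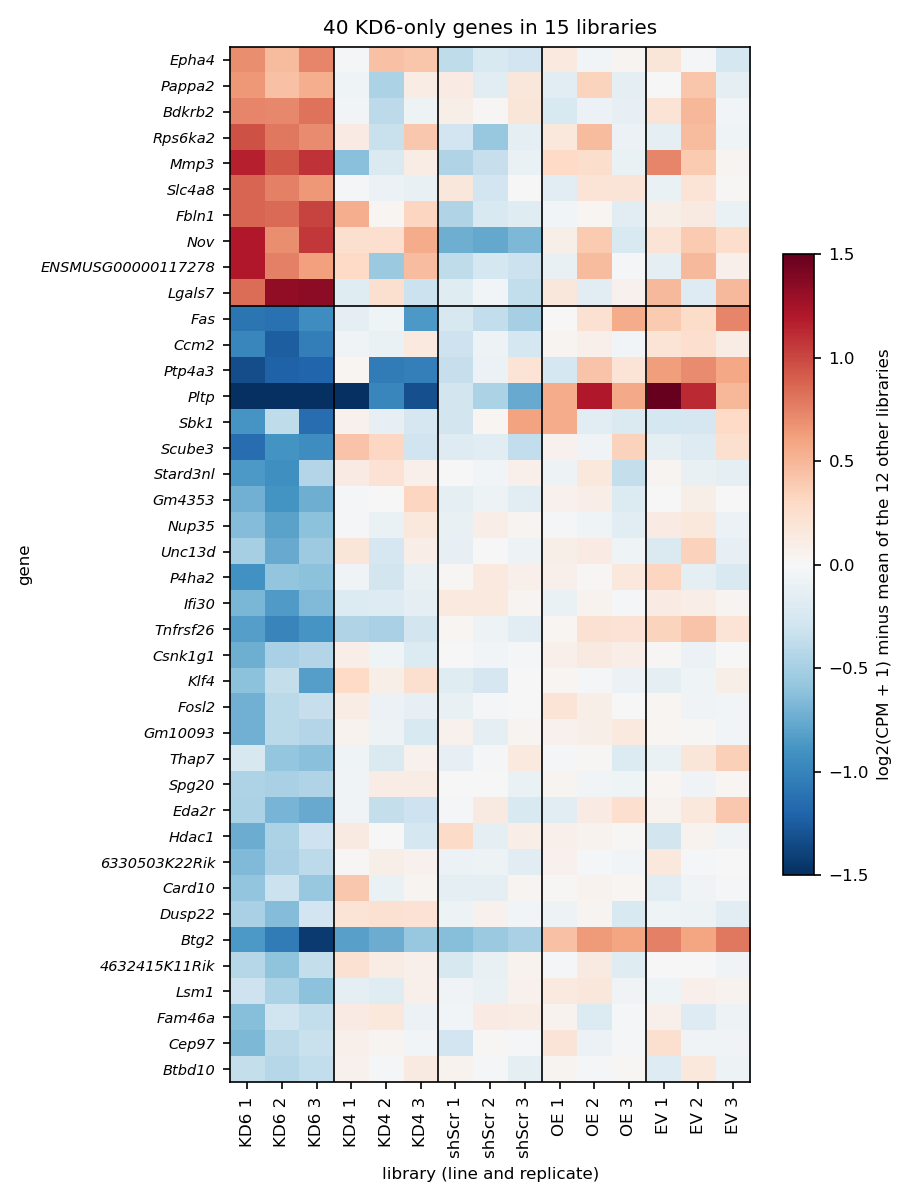
Heatmap of the 40 KD6-only genes (rows, higher genes above the line) in 15 libraries (columns), as log2(CPM + 1) minus the mean of the 12 libraries that are not KD6; red is higher and blue lower, with values beyond 1.5 either way drawn in the end colour. The first 3 columns are KD6; Btg2 and Pltp are also blue in KD4 and in shScr and red in OE and EV, whereas for Csnk1g1, Nup35 or Slc4a8 the other 4 lines are pale.

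Of the other lower genes, Fas, Eda2r and Tnfrsf26 encode receptors of 1 family. Fas, the receptor that starts apoptosis on binding its ligand, had 1.41, 1.36 and 1.71 CPM in KD6, against 1.84 to 7.57 CPM (median 4.01) in the others, and the nearest line, shScr, was 2.00-fold above KD6. Eda2r, a receptor of the same tumour necrosis factor receptor family that binds ectodysplasin A2, had 13.6, 11.6 and 11 CPM in KD6, against 14.9 to 25.95 CPM (median 19.7). Tnfrsf26, a further receptor of the family, had 44.6, 40.0 and 42.9 CPM in KD6, against 56.8 to 108 CPM (median 81.7). KD4 was the line nearest to KD6 for Eda2r (mean 16.3 CPM) and Tnfrsf26 (60.3 CPM), and KD4 replicate 3 had 1.84 CPM of Fas, next to KD6 replicate 3.

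Fas, Eda2r and Btg2, an antiproliferative protein, are also targets of the transcription factor p53, which induces genes of cell cycle arrest and apoptosis after DNA damage. Btg2 had 18.4, 16.0 and 12 CPM in KD6 and 19.1, 19.99 and 22.8 CPM in KD4, against 21.6, 23.0 and 24.2 CPM in shScr. It had 46.6, 53.7 and 52.2 CPM in OE, against 58.3, 51.9 and 59.75 CPM in EV, so that all hairpin lines stood below both vector lines. Of 22 measured genes on a list of 24 p53 targets, 3 were members and 4 had KD6 below all others, with 0 above; among the 10689 genes 114 were below and 90 above. The fourth was Plk2, a polo-like kinase, with 113, 108 and 106 CPM in KD6 and line means of 139 ± 10.4 CPM in KD4, 139 ± 5.25 CPM in shScr, 147 ± 1.27 CPM in OE and 154 ± 5.39 CPM in EV (SD, n = 3). The list had a median difference of -0.28 between KD6 and the other libraries on the log2 scale, against 0.00 over all genes.

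The p53 list did not set KD6 apart from the other hairpin lines in every gene. In KD4 and shScr against EV and OE, a contrast without KD6, 13 of the 22 fell and 0 rose, with a median log2 change of -0.31 against -0.01 over all genes, where 13.1% fell and 9.65% rose. In the same contrast 12 of the 13 mitochondrially encoded genes fell, with a median log2 change of -0.40, and their part in the p53 list's values was not tested. Cdkn1a, the p21 inhibitor of cyclin-dependent kinases, averaged 115 and 139.5 CPM in KD4 and shScr, against 231 and 214 CPM in OE and EV (adjusted p = 0.00058, log2 change -0.83, SE 0.13), and stood at 110 CPM in KD6. Mdm2, the ubiquitin ligase of p53, averaged 183 and 231 CPM in KD4 and shScr, against 323.5 and 328 CPM in OE and EV (adjusted p = 9.6e-07, log2 change -0.66, SE 0.05), and 209 CPM in KD6. Fas, Eda2r and Btg2 are among the 13. In KD4 against shScr, 2 of the list rose (Perp and Phlda3) and 2 fell (Mdm2 and Trp53inp1), where 7.02% of all genes rose and 4.85% fell.

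**Figure D4:**
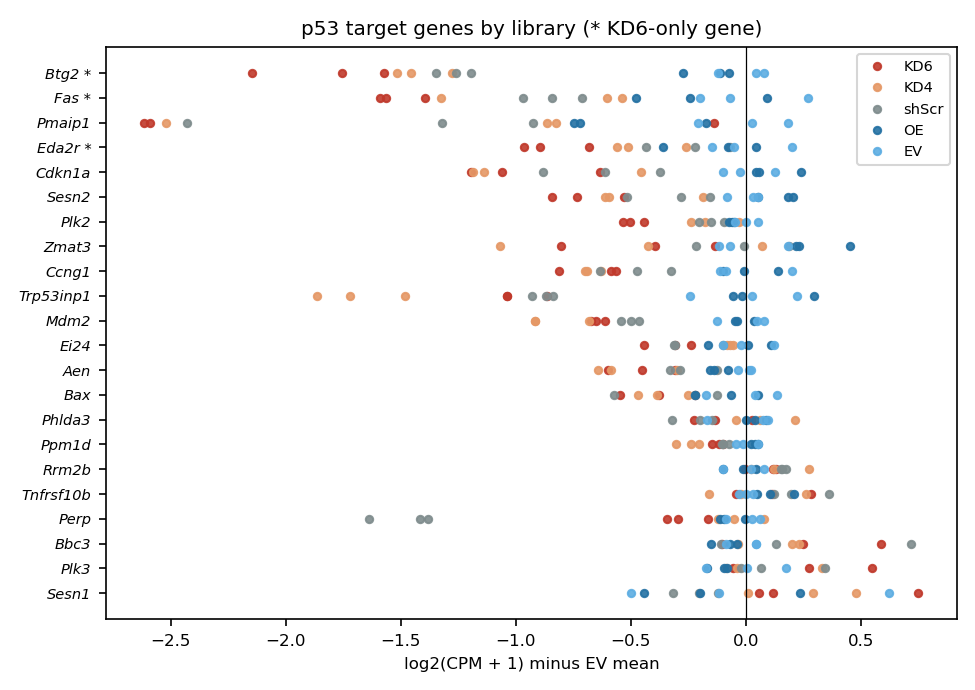
Level of 22 p53 target genes in each library, as log2(CPM + 1) minus the EV mean of the gene, with genes ordered by the difference between KD6 and the 12 other libraries and stars on the 3 KD6-only genes. Btg2, Fas and Eda2r have KD6 at the low end, while Cdkn1a, Mdm2 and Ccng1 have KD6, KD4 and shScr together below OE and EV.

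Several lower genes act in transcription, chromatin and RNA. Klf4, a zinc finger transcription factor of epithelial differentiation, had 9.43, 11.4 and 8.0 CPM in KD6, against 12.3 to 18.6 CPM (median 14.8). With Fosl2 it was 1 of 2 members among 27 measured immediate early genes and ERK targets, and these were also the only genes of that list with KD6 below all others. Over the 10689 genes with at least 5 CPM, 0.281% were lower members and 1.07% had KD6 below all others. Hdac1, a histone deacetylase, had 15.2, 18.5 and 20.9 CPM in KD6, against 21.4 to 32.1 CPM (median 26.7), and Gm10093 had 37.7, 47.3 and 46.2 CPM, against 53.6 to 69.6 CPM (median 64.5). The Gm10093 and Hdac1 transcripts were 99.4% identical over 1965 aligned bases, so their reads may be shared and which of them differed is uncertain. Lsm1, a subunit of the complex that promotes mRNA decapping, had 24.1, 21.3 and 19.2 CPM in KD6, against 26.4 to 33.8 CPM (median 30.0). Fam46a, a noncanonical poly(A) polymerase also named Tent5a, had 9.93, 12.9 and 12.2 CPM, against 13.8 to 18.1 CPM (median 16.2).

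Other lower genes act in lipid transfer, vesicles or the matrix. Pltp, the phospholipid transfer protein, had 2.76, 2.59 and 3.82 CPM in KD6 and 3.97, 7.36 and 5.63 CPM in KD4, against 12.6, 10.8 and 8.75 CPM in shScr. It had 23.3, 36.9 and 23.45 CPM in OE, against 47.9, 34.8 and 22.3 CPM in EV, the widest spread between lines of the 40 genes. Stard3nl, a late endosome protein of contacts with the endoplasmic reticulum, had 5.08, 4.87 and 7.17 CPM in KD6, against 7.66 to 11.9 CPM (median 10.3). Unc13d, the granule priming factor Munc13-4, had 5.82, 4.68 and 5.60 CPM, against 7.11 to 11.2 CPM (median 8.44). Scube3, a secreted EGF-domain protein, had 6.57, 8.02 and 7.78 CPM in KD6, against 11.99 to 21.5 CPM (median 14.7), a gap of 1.77-fold to shScr. P4ha2, a collagen prolyl hydroxylase, had 10.1, 12.9 and 12.7 CPM in KD6, against 16.3 to 25.1 CPM (median 20.2). It was the only member among 24 measured genes of hypoxia and glycolysis, of which 2 had KD6 below all others. Over the 10689 genes with at least 5 CPM, 0.281% were lower members and 1.07% had KD6 below all others.

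The rest were signalling and other genes. Ptp4a3, the protein tyrosine phosphatase PRL-3, had 1.88, 2.11 and 2.16 CPM in KD6, against 2.505 to 10.8 CPM (median 6.85); 2 of the KD4 libraries had 2.505 and 2.54 CPM, close to KD6, and the third had 6.39 CPM. Sbk1, a serine/threonine kinase, had 2.03, 3.295 and 1.53 CPM, against 3.63 to 7.53 CPM (median 4.05), with KD6 replicate 2 near the others. Spg20, the lipid droplet protein spartin, had closely spaced KD6 libraries, with 86.8, 86.1 and 88.2 CPM in KD6, against 112 to 130 CPM (median 120). Card10, Dusp22, Cep97, 4632415K11Rik and Btbd10 had nearest lines 1.34-fold to 1.3-fold above KD6. Cep97, which caps centrioles, and Btbd10 were the lower genes just inside the limit, at 1.31-fold and 1.3-fold, and Aif1l and Wisp1 lay just outside it at 1.298-fold and 1.295-fold.

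Of the 40 genes 18 had a single listed transcript, and the other 22 had 59, of which 53 had a KD6 mean on the side of the gene and 19 had the KD6 libraries all beyond the others. In 13 genes 1 transcript was separated, in Slc4a8, Epha4 and Scube3 more than 1, and in 6 none. The Epha4 transcripts took 50.2% and 49.8% of the gene in KD6 and nearly the same shares in the other lines, so they are not separate observations. Pltp transcript ENSMUST00000059954 averaged 1.19 CPM in KD6 and 3.65 CPM in KD4, against 9.33 CPM in shScr, 24.9 CPM in OE and 31.9 CPM in EV, and made up 39.0% of the gene in KD6 against 87.0% in shScr. The other Pltp transcript, ENSMUST00000109316, averaged 1.86 CPM in KD6 and 1.40 to 3.13 CPM in the other lines and overlapped them. In Fam46a, ENSMUST00000187711 averaged 2.69 CPM in KD6 against 4.82 to 8.42 CPM in the other lines, whereas ENSMUST00000034802 averaged 8.97 CPM in KD6 and 8.44 to 10.5 CPM in the others. Stard3nl showed the same form: ENSMUST00000039694 averaged 4.48 CPM in KD6 against 8.45 to 9.64 CPM, and ENSMUST00000196712 averaged 1.22 CPM against 1.06 to 1.55 CPM.

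A second table, of gene levels in the hairpin lines, holds reads of other transcripts too. There all 10 higher genes lay above the 6 KD4 and shScr libraries, and 27 of the 30 lower genes lay below them. P4ha2, Thap7 and Ptp4a3 overlapped. The values come from the same libraries, and the rule had already set KD6 beyond these 6 by transcript sum. The counts are therefore a description and not a separate test. With KD6 set against these 6 alone, 153 genes met the limits in this table, 31 of them among the genes described here. Ptp4a3 averaged 5.42 CPM in KD6 and 4.37 CPM in KD4, against 7.40 CPM in shScr, which places KD6 above KD4 in this table, and its levels were 2.64-fold the sum of listed transcripts. Pltp levels were 2.22-fold that sum, and its KD6 mean of 6.79 CPM stood at 0.760-fold KD4 and 0.661-fold shScr. For these genes the gap of KD6 depends on which transcripts are counted.

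The 40 genes were also compared in contrasts without a KD6 library. The rule used the levels of all 5 lines and limits how far the others can spread toward KD6, so the counts of members are given as a description beside the share over all genes. In KD4 against shScr 5 of the 40 passed at an adjusted p under 0.05 (3 rose and 2 fell), where 13.1% of the genes with at least 5 CPM did, 7.86% rising and 5.22% falling. Nov rose 3.11-fold (log2 change 1.08, SE 0.16, adjusted p = 0.00060), with 3.16, 3.2 and 4.19 CPM in KD4 against 1.12, 1.06 and 1.21 CPM in shScr. Fbln1 rose 1.79-fold (log2 change 0.59, SE 0.13, adjusted p = 0.0094) and Epha4 1.59-fold (log2 change 0.57, SE 0.13, adjusted p = 0.0128). These 3 were higher in KD6 as well. For Nov, however, KD4 averaged 3.51 CPM, near EV (3.29 CPM) and OE (2.78 CPM), and shScr (1.13 CPM) was the line that stood low. Nov and Fbln1 reached the 5 CPM minimum only in KD6 (6.03 and 5.55 CPM), so their KD4 and shScr values lay below it. Ifi30 fell to 33.1 CPM in KD4 against 40.6 CPM in shScr (log2 change -0.29, SE 0.07, adjusted p = 0.0111), and Tnfrsf26 fell to 60.3 CPM in KD4 against 76.3 CPM in shScr (log2 change -0.33, SE 0.08, adjusted p = 0.0173). The Epha4 call ended without KD4 replicate 2 (adjusted p = 0.0604), KD4 replicate 3 (0.0512) or shScr replicate 1 (0.0520) in limma, and that of Tnfrsf26 without KD4 replicate 2 (0.0721) or shScr replicate 1 (0.0761).

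In OE against EV 0 of the 40 and 0 of all 13142 genes passed in limma (0% of the genes with at least 5 CPM). At an unadjusted p under 0.05 limma gave 742 genes, and 1 of the 40 was among them, Bdkrb2, with 3.68, 4.19 and 4.05 CPM in OE against 5.31, 6.76 and 4.33 CPM in EV (adjusted p = 0.769, log2 change -0.36, SE 0.13). In the separate gene table of these lines 1 gene passed, none of the 40.

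The hairpin lines without KD6, KD4 and shScr, were also set against EV and OE, a contrast of hairpin vector and puromycin with expression vector and blasticidin. Smarcd1 differed along it too, averaging 8.098 CPM in KD4 and 15.27 CPM in shScr, against 37.35 CPM in OE and 29.37 CPM in EV. Vector, drug and Smarcd1 level cannot be told apart here. Of the 40 genes 9 fell and 0 rose, where 15.2% of the genes with at least 5 CPM fell and 9.20% rose (24.4% either way). Btg2 fell to 21.8 CPM in KD4 and shScr against 53.7 CPM in EV and OE (log2 change -1.27, SE 0.09, adjusted p = 3.9e-07), and Pltp to 8.19 CPM against 31.4 CPM (adjusted p = 1.5e-05, log2 change -1.84, SE 0.18). Tnfrsf26 (log2 change -0.48, adjusted p = 8.2e-05), Fas (-0.73, adjusted p = 0.0024) and Ptp4a3 (-0.76, adjusted p = 0.0073) fell too, so that by transcript sum these 5 genes were lower in KD4 and shScr than in the vector lines and lower again in KD6. Fas reached the 5 CPM minimum of the rule only in OE (5.23 CPM) and EV (6.18 CPM), so that minimum favoured its fall in this contrast. Mmp3 fell to 4.24 CPM in KD4 and shScr against 6.67 CPM in EV and OE (log2 change -0.54, SE 0.14, adjusted p = 0.0121 in limma), the side opposite to its high level in KD6. Nov passed as lower too (log2 change -0.37, SE 0.11, adjusted p = 0.0314 in limma), but only shScr, at 1.13 CPM, lay below the vector lines. KD4 averaged 3.51 CPM of Nov, against 2.78 CPM in OE and 3.29 CPM in EV.

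Ccm2 (log2 change -0.21, SE 0.06, adjusted p = 0.0295) and Eda2r (log2 change -0.28, SE 0.09, adjusted p = 0.0480) passed narrowly. In limma fits without 1 library, the call ended for Ccm2 in 8 of 15 (without KD4 replicate 1 or 2, shScr 1 or 3, OE 1 or 2, EV 1 or 2; adjusted p 0.0126 to 0.0728 over the 15), for Nov in 8 (without KD4 replicate 1 or 2, shScr 1 or 2, OE 1 or 2, EV 2 or 3; 0.0122 to 0.0767) and for Eda2r in 9 (without KD6 replicate 2, KD4 2 or 3, shScr 1 or 3, OE 2 or 3, EV 2 or 3; 0.0247 to 0.116).

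**Figure D5:**
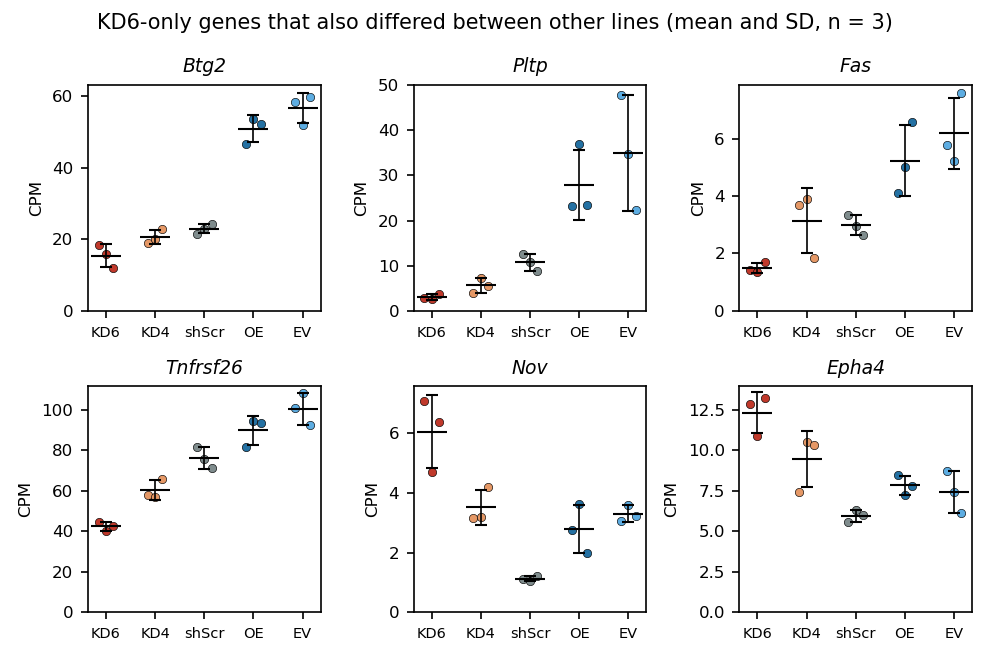
Level (CPM, linear axis from 0) per library of 6 KD6-only genes that also passed a contrast without KD6, in KD6, KD4, shScr, OE and EV, with points for libraries and the mean and SD of 3. Btg2, Pltp, Fas and Tnfrsf26 are lower in KD4 and shScr than in OE and EV, and Nov and Epha4 are higher in KD4 than in shScr.

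The 39 genes with a place in the annotation lay on many chromosomes. The fullest were chromosome 7 with 6 of the 39 and chromosome 15 with 5 of the 39, named after the counts were seen. Both exceeded the 7.08% and 3.84% of genes with at least 5 CPM that these chromosomes hold, a difference that was not tested. No members were next to each other: the closest in order were Btbd10 and Gm4353 with 6 measured genes between them, and Gm4353 and 6330503K22Rik with 9. Gm4353 is counted on chromosome 7, but its transcript was 99.6% identical to that of Nup35 on chromosome 2. Its reads may therefore not come from chromosome 7. Of 31 gene lists, 27 had no member, among them those of BAF subunits (25 measured), interferon response (29) and small RNA machinery (9). The adipocyte marker list had 0 measured genes. Members were 0.0936% (higher) and 0.281% (lower) of the 10689 genes, so a list of such size without a member is the usual case and says little about its genes. The set also depended on single libraries: without KD6 replicate 1 the limits gave 67 genes, 31 of them among the 40, and without KD6 replicate 2 or 3 they gave 49 (37 shared) and 46 (34 shared).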

How the data were processed

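Per the labels, mRNA libraries were made from RNA with an integrity number above 7. The deposited values were CPM calculated by the authors for 30220 transcripts of 13142 genes in 15 libraries, beside gene tables of the hairpin lines (13669 genes) and vector lines (13501 genes). The submitters' processing notes name STAR 2.7.8a and mm39, and the methods of the study name Trimmomatic, Tophat, mm9, Ensembl annotation and Partek, so how reads became values is unsettled and no coordinate was taken from the files. The values are fractional without whole-read steps; depth is unknown, and counting intervals are not given. The geometric mean of each listed transcript reached 1.00 CPM, so others had been removed. A further 15 columns, whose names match no label, were not used.

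Transcript CPM were summed per gene (87.6% of identifiers had a symbol). log2(CPM + 1) of all 13142 genes was fitted in 5 groups with limma 3.58.1 (R 4.3.3, intensity trend, two-sided, Benjamini-Hochberg over all genes, threshold 0.05), after a check on simulated data. The 40 genes, the lists and the tests were chosen with earlier results of these data known. Genes were named by size of the gap, list membership and smallest p; those named for a sequence match, and the match itself, were chosen after values were seen. Some genes with the match are not reported here. 3′ UTRs came from GENCODE vM1 on NCBIM37, which gave one for 39 of the 40 genes and for 9418 genes with at least 5 CPM. Hairpin targets were found by search of Smarcd1. Alternatives were a pseudocount of 0.1, quantile and median-of-ratios scaling, a 5 CPM minimum, other limits of the rule, the gene tables, a block for replicate number and leaving out each library. Plots were made in Python 3.11.15 with matplotlib 3.10.9.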

Additional observations from a re-analysis of the deposited data

How the results depend on the processing

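The 40 genes became 80 at a fold of 1.2, 19 at a fold of 1.5 and 153 in the gene table of the hairpin lines, which sets KD6 against 6 libraries instead of 12; 40, 19 and 31 of these were among the 40. Without 1 library the set ranged from 39 to 67 genes, the highest without KD6 replicate 1. The lower genes with a match to the hairpin target numbered 20 at 6 bases, 4 at 10, 0 at 11 and 1 for 9 bases of the other hairpin; these lengths were chosen after seeing the data.

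Same-numbered libraries did not deviate together (correlations between -0.33 and 0.24), so replicate numbers were not taken as pairs. Differently numbered libraries correlated from -0.37 (KD4 replicate 1 with shScr replicate 2) to 0.43 (KD6 replicate 1 with KD4 replicate 3). Deviations shared between lines under other numbers were not modelled in the fits. With the number as a replicate block, the genes called were 919 instead of 1560 in KD4 against shScr and 1909 instead of 2990 in KD4 and shScr against EV and OE, and the calls of Ccm2 (adjusted p = 0.0684), Nov (0.0679) and Eda2r (0.0911) in limma ended; no other call of the 40 changed. The gene table of the vector lines gave 1 gene in OE against EV, instead of 0. Without 1 library, KD4 against shScr gave 1031 to 1664 genes and 3 to 6 of the 40, in each case the fewest without shScr replicate 1. Quantile normalization ended the calls of Ccm2 (0.0686) and Eda2r (0.0648), and scaling by the median of ratios that of Eda2r (0.0513). Over 19 tests of single genes and 386 alternatives, 350 gave the same outcome as the main fit, 36 lost a call and 0 changed direction. Bdkrb2, Ptp4a3, Tnfrsf26, Ccm2 and Ifi30 in OE against EV are among the 19. These had no call in the main fit, so for them the same outcome means no call.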
